A study of Mus musculus with 6 samples.

Results

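3T3-L1 adipocytes that had received adenine while they were being induced to differentiate were compared with adipocytes induced without it. The comparison rests on 2 of the 6 arrays of the series, 1 per side, and was described over 9969 genes of 19938 that carried a single symbol. A gene was represented by its brightest probe set, and the 9969 are those whose mean log2 level over the 6 arrays reached the median of all such means, 5.87. Every difference below is the log2 level in adenine adipocytes minus that in control adipocytes unless another pair is named, so that 1 stands for 2-fold and a negative value for a lower level with adenine.

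3T3-L1 is an established mouse embryo fibroblast line whose confluent cells turn into fat-storing cells under a hormone mixture. Control adipocytes were confluent cells given an induction medium for 3 days, which held 10% FBS, the phosphodiesterase inhibitor IBMX (115 μg/ml), the glucocorticoid dexamethasone (1 μmol/l) and insulin (1 μg/ml). They then spent 3 days in 10% FBS with 1 μg/ml insulin. Adenine adipocytes had 0.5 mM adenine in the induction medium only, so their RNA was taken 3 days after the compound had been withdrawn. Another adipocyte culture received 0.5 mM AICAR on the same schedule. The 3 fibroblast cultures stayed in 10% calf serum, either untreated or exposed until harvest, for 3 days, to adenine at 0.5 mM or AICAR at the same dose. The adipocyte and fibroblast arms thus differ in serum, hormones and the time since exposure as well as in cell state.

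Adenine is a purine base, which cells join to a ribose phosphate through adenine phosphoribosyltransferase (Aprt) to form AMP; AICAR is a ribonucleoside whose phosphorylated form imitates AMP. During adipogenesis the hormone mixture first induces C/EBP-beta and C/EBP-delta, which are followed by PPAR-gamma and C/EBP-alpha and by the enzymes, droplet coat proteins and secreted factors of the fat cell. The same process replaces a fibroblast's collagen-rich matrix, its stress fibres and its stromal surface receptors. The title of the series names purinergic signalling by adenine as its concern.

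No condition was repeated, so the differences carry neither a replicate error nor a p-value, and precision is bounded by having a single array on each side. The medians over all probe sets lay between 5.41 and 5.49, with the adenine adipocyte array lowest and the control adipocyte array highest. The cells matched their labels on adipocyte markers: perilipin 1 (Plin1) stood at 9.52 in control and 10.52 in adenine adipocytes against 5.14 to 5.35 on the 3 fibroblast arrays. Leptin (Lep), which cultured 3T3-L1 cells make sparingly, stayed at 4.65 and 4.25, under the filter level. Of 19 leukocyte markers measured, 0 reached that level on either adipocyte array, and their median level was 4.63 in control and 4.38 in adenine cells. Endothelial markers reached it in 1 of 15 cases on both arrays, epithelial markers in 0 and 1 of 15, muscle markers in 6 and 3 of 19, and bone and cartilage markers in 5 of 20 on both. The leukocyte gene Ptprc (4.24 and 4.20), the endothelial gene Pecam1 (4.76 and 4.35) and the epithelial gene Epcam (4.64 and 4.45) were all dim, in that order of control and adenine.

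Adenine adipocytes had more genes far below the control than far above it. At least 2-fold, 124 genes were higher (1.24% of the 9969) and 239 were lower (2.4%), a split of 34.2% to the higher side. With each array centred on its own median the counts were 167 and 202, a split of 45.3%. The median over all genes was 0.02, with a robust SD of 0.33, and 52.5% of genes lay above 0 and 47.5% below. The excess of lower genes lay in the tail: at 1.5-fold the counts were 683 higher (6.85%) and 685 lower (6.87%). At the edges of the rule Asf1b was just counted as higher and Mpp6 (0.999) just missed, while Gli2 was just counted as lower and C1qtnf6 (-0.998) just missed.

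**Figure D1:**
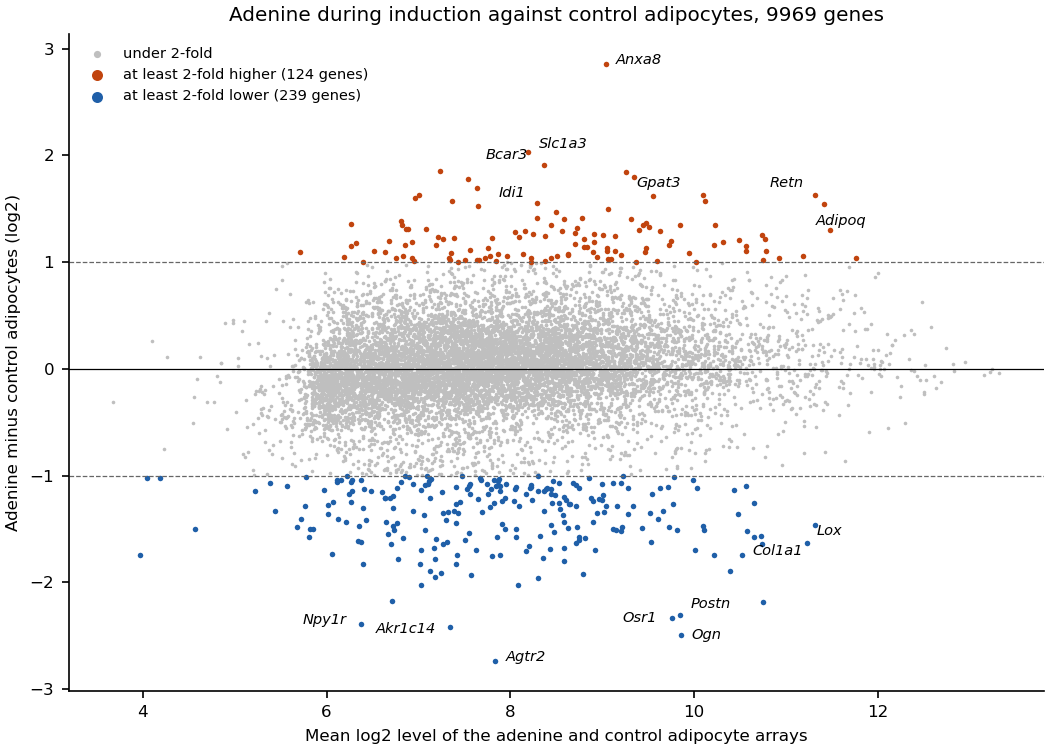
Difference between adenine and control adipocytes (vertical axis, log2) against the mean log2 level of those 2 arrays (horizontal axis) for 9969 genes, 1 point per gene, with dashed lines at 2-fold. The 124 genes at least 2-fold higher and the 239 at least 2-fold lower both include bright genes, such as Adipoq on the higher side and Lox and Col1a1 on the lower.

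The gene with the largest positive difference was annexin A8 (Anxa8, chr14:34085979-34100571 in GRCm38), a calcium-dependent phospholipid-binding protein. Its log2 level was 7.61 in control, 10.46 in adenine and 8.40 in AICAR adipocytes and 6.003, 5.55 and 6.68 in the control, adenine and AICAR fibroblasts. The adenine adipocytes had the highest level of the 6 arrays and were 7.26-fold above the control. The glial-type glutamate and aspartate transporter Slc1a3 (chr15:8634124-8710807) stood at 7.18 in control, 9.21 in adenine and 7.05 in AICAR adipocytes, while the fibroblast levels were 5.69, 6.26 and 5.49. Its difference of 2.03 placed it next, and the adenine value was above those of the other 5 arrays. Gpat3 (chr5:100845665-100899102), which adds the first fatty acid to glycerol phosphate, was at 8.34 in control, 10.18 in adenine and 8.69 in AICAR adipocytes and at 6.19, 5.89 and 6.55 in the fibroblasts, in the same order of control, adenine and AICAR. At the other end the type 2 angiotensin receptor Agtr2 (chrX:21484624-21488833) read 9.20 in control, 6.46 in adenine and 7.91 in AICAR adipocytes. Its fibroblast levels of 6.89, 7.67 and 4.42 straddled the adenine adipocyte value. Osteoglycin (Ogn, chr13:49608015-49624501), a small leucine-rich proteoglycan of collagenous tissue, read 11.10 in control, 8.61 in adenine and 10.67 in AICAR adipocytes, against 11.82, 11.997 and 10.81 in fibroblasts. For osteoglycin the adenine adipocytes were thus below all other arrays, while for Agtr2 the AICAR fibroblasts were lower still.

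Genes of the mature fat cell were mostly higher with adenine. Of 30 measured markers, 20 passed the filter, with a median of 1.07 (0.80 over all 30). Of the 20, 19 lay above 0 (52.5% of all genes did) and 12 were at least 2-fold higher (1.24%). Adiponectin (Adipoq), the insulin-sensitising hormone of fat cells, was at 10.64 in control, 12.18 in adenine and 10.79 in AICAR adipocytes and at 4.42, 4.45 and 4.05 in the fibroblasts. Resistin (Retn), another secreted factor, was at 10.50 in control, 12.13 in adenine and 9.38 in AICAR adipocytes. The AICAR array lay below the control for resistin and close to it for adiponectin, and the adenine array was highest for both. Apmap, a membrane protein of adipocytes, differed by 1.63 and Lgals12, a lectin found on lipid droplets, by 1.33. Cd36, the fatty acid translocase, differed by only 0.54 from an already high 10.91, Fabp4, the adipocyte fatty acid-binding protein, by 0.69 and Lpl, the lipase that frees fatty acids from circulating triglyceride, by 0.33. Carbonic anhydrase 3 (Car3) was the exception, at 10.17 in control, 9.34 in adenine and 8.05 in AICAR adipocytes. The whole list of 30 had a median level of 9.01 in control and 10.1 in adenine adipocytes, with 21 and 22 members at the filter level or above. Cd36, Fabp4 and Lpl also belong to the list of fatty acid uptake and binding. In that list 7 of 14 genes past the filter lay above 0 (52.5% of all genes), the median was -0.03 and Vldlr was lowest at -0.81. In bulk RNA, fewer cells of a type and less RNA per cell cannot be told apart.

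The proteins that coat and break down the lipid droplet did not all move alike. Seipin (Bscl2), which shapes nascent droplets, differed by 1.38, the droplet-fusion protein Cidec by 1.30, hormone-sensitive lipase (Lipe) by 1.35, adipose triglyceride lipase (Pnpla2) by 1.16 and perilipin 1 by 1.005. These 5 were the members at least 2-fold higher (1.24% of all genes were) among 18 that passed the filter of 25 measured. The broadly expressed coat proteins perilipin 2 (Plin2, 0.07) and perilipin 3 (Plin3, -0.47) lay near or under 0, and Abhd5, the activator of Pnpla2, was at 0.27. Lipe read 9.55 in control, 10.90 in adenine and 9.69 in AICAR adipocytes and Cidec 10.82 in control, 12.13 in adenine and 10.62 in AICAR adipocytes, so that each was close between control and AICAR and apart in adenine.

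Enzymes of triglyceride assembly formed another high group, with 13 of 18 measured genes past the filter and a median of 0.73 (0.34 without the filter). Of the 13, 12 lay above 0 (52.5% of all genes) and 4 were at least 2-fold higher (1.24%). Besides Gpat3, these were both enzymes of the last step, Dgat1 (1.19) and Dgat2 (1.11), and glycerol-3-phosphate dehydrogenase (Gpd1, 1.06), which supplies the glycerol backbone. The phosphatidate phosphatase lipin 1 (Lpin1) was at 0.92 and the acyltransferase Agpat2 at 0.73, while Gpat4 was at 0.00 and Agpat4 at -0.54. Fatty acid synthesis showed smaller differences, with 16 of 22 above 0, a median of 0.44 and 0 past 2-fold either way. Its highest members were fatty acid synthase (Fasn, 0.86), malic enzyme (Me1, 0.74) and the stearoyl-CoA desaturase Scd1 (0.74), and its lowest was the elongase Elovl6 (-0.64). Scd3 was at 1.58, but its sequence is close to that of its neighbour Scd1, and the probe sets may share signal. Another elongase, Elovl3, did not pass the filter over 6 arrays because it was dim in 5 of them. Its levels were 4.84 in control, 6.91 in adenine and 4.55 in AICAR adipocytes and 3.74 to 3.96 in fibroblasts.

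The transcription factors behind the fat cell programme were split. Of 22 that passed the filter of 27 measured, 12 lay above 0, near the 52.5% of all genes, and the median was 0.08. C/EBP-alpha (Cebpa) was at 7.75 in control, 9.001 in adenine and 7.61 in AICAR adipocytes, a difference of 1.25, PPAR-gamma (Pparg) at 9.81 in control, 10.80 in adenine and 9.95 in AICAR adipocytes, a difference of 0.99, and the liver X receptor Nr1h3 at 0.94. The early factors were on the other side of 0, with C/EBP-delta (Cebpd) at -0.67 and Klf5 at -0.75, while Cebpb was at -0.06. Factors known to hold adipogenesis back had a median of -0.23 over 21 of 27 measured (-0.42 without the filter, -0.91 with it at the 75th percentile), and 6 of them were at least 2-fold lower (2.4% of all genes were). They were Osr1 (-2.33), Osr2 (-1.78), Prrx1 (-1.34), Zfp521 (-1.33), Dlk1 (-1.33), the preadipocyte factor 1 of classic assays, and Twist2 (-1.27). Osr1, an odd-skipped factor of connective tissue, read 10.93 in control, 8.60 in adenine and 10.82 in AICAR adipocytes, and the fibroblast arrays read 10.95, 10.69 and 9.68. The adenine adipocytes had the lowest Osr1 of the 6. In the same list the Hippo pathway effectors Yap1 (-0.07) and Wwtr1 (0.07) stayed near 0, and Ddit3 was at 0.65.

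Cholesterol synthesis was among the higher lists. Cells make cholesterol from acetyl-CoA through mevalonate and isoprenoid units, and SREBP factors together with the CCAAT-binding factor NF-Y switch on the whole pathway when sterol is short. All 20 measured members passed the filter, 19 lay above 0 (52.5% of all genes), 4 were at least 2-fold higher (1.24%) and the median was 0.65. The 4 were isopentenyl diphosphate isomerase (Idi1, 1.55), the sterol sensor Insig1 (1.21), the methylsterol oxidase Msmo1 (1.09) and lanosterol synthase (Lss, 1.06). HMG-CoA synthase (Hmgcs1) was at 0.75 and squalene epoxidase (Sqle) at 0.72, whereas the regulator Srebf2 was at 0.07 and Ebp at -0.03. Idi1 read 7.51 in control, 9.06 in adenine and 7.54 in AICAR adipocytes, with control and AICAR nearly level and adenine above both, and a further probe set of Idi1 gave 1.59. In fibroblasts all 20 were above 0 with adenine too (47.8% of all genes were), with a median of 0.32. This list thus lay on the same side in both states, on arrays that are not shared. In the fibroblasts Idi1 differed by 0.45 and Insig1 by 0.57. Genes of cholesterol efflux and other liver X receptor targets were mixed, with the HDL receptor Scarb1 at 1.26, the efflux pump Abca1 at 0.47 and the LDL receptor-degrading ligase Mylip at -1.11.

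The promoters of the 4 highest members and of Hmgcs1 are given to show the short sites they hold. Each is the 250 bases before the RefSeq start on GRCm38.p6, read 5′ to 3′ on the gene's strand, with CCAAT or its complement ATTGG and the sterol element TCACNCCAC in capitals.
Idi1 (chr13:8885356-8885605, plus strand): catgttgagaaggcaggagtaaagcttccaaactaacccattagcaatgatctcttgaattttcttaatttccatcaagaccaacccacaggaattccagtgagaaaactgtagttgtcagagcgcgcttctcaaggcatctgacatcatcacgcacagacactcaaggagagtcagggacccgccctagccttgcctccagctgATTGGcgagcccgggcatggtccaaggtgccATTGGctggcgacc
Insig1 (chr5:28071162-28071411, plus strand): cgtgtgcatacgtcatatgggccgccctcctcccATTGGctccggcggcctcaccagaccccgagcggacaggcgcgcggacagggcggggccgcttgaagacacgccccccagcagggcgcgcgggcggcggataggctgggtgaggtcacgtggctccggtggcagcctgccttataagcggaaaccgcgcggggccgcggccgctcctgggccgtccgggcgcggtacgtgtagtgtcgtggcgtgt
Msmo1 (chr8:64733579-64733828, minus strand): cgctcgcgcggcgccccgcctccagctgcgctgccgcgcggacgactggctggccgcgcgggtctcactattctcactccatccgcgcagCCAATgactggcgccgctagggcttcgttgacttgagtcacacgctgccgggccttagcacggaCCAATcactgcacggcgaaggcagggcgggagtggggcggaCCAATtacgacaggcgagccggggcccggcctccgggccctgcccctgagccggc
Lss (chr10:76531355-76531604, plus strand): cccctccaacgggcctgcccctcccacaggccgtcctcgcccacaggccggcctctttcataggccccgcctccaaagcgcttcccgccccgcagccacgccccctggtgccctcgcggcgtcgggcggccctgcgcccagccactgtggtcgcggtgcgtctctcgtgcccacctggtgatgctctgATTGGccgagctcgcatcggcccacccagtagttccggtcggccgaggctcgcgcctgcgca
Hmgcs1 (chr13:119690101-119690350, plus strand): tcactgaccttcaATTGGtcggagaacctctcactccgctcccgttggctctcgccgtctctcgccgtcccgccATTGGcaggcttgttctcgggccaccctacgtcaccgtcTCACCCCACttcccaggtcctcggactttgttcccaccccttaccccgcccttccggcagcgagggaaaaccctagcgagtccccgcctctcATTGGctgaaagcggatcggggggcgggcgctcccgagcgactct
CCAAT on either strand occurs 2 times in Idi1, 3 times in Msmo1, 3 times in Hmgcs1 and 1 time each in Insig1 and Lss. Of the 20 members 16 had a RefSeq promoter. A gene was counted if any of its promoters held CCAAT. All 16 genes were counted, although Pmvk and Dhcr7 also had promoters without it. So were 20 of 24 genes (83.3%) in the list of the unfolded protein response and ER chaperones, whose median adenine difference was 0.00. The share was 40.6% of the 8057 genes past the filter that had a promoter and 37.5% of all 27025 genes with a promoter. The sterol element in this exact spelling was found in 1 of 16 (Hmgcs1), against 1.17% of the 8057. CCAAT was as common in the genes at least 2-fold higher (40.8% of 98) and lower (41.9% of 172) as in all. A match describes the letters only, and no binding was measured.

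Mitochondrial genes were higher almost throughout, by less than 2-fold in most cases. All 46 respiratory chain and ATP synthase subunits that passed the filter, of 48 measured, lay above 0, where 52.5% of all genes did. They lay between 0.26 (Cox7b) and 1.07 (Ndufb10), with a median of 0.56. Cytochrome c1 (Cyc1) read 9.07 in control, 9.99 in adenine and 9.05 in AICAR adipocytes and cytochrome c (Cycs) 11.54 in control, 12.40 in adenine and 11.98 in AICAR adipocytes, in both of which adenine was above the other adipocyte arrays. In fibroblasts given adenine 12 of the 46 lay above 0 (47.8% of all genes did). The citrate cycle and pyruvate entry had a median of 0.62 over 24 genes, led by the pyruvate dehydrogenase subunit Pdhb (1.22) and its inhibitory kinase Pdk2 (1.15). A further kinase of that complex, Pdk4, was at -0.41. Among genes of the mitochondrial ribosome and translation 31 of 32 lay above 0, around a median of 0.49, with Mrpl45 highest at 0.91. The 21 genes of fatty acid oxidation were centred on 0.53. Carnitine acetyltransferase (Crat) was its only member past 2-fold (1.25), and the gatekeeper of mitochondrial fatty acid entry, Cpt1a, was lowest at -0.95, with levels of 8.19 in control, 7.24 in adenine and 8.25 in AICAR adipocytes. Peroxisomal genes stood at a median of 0.34 over 23, with the sterol carrier protein Scp2 (1.29) and the membrane assembly factor Pex3 (1.01) past 2-fold and catalase (Cat) at -0.26. Of 19 brown and beige fat markers measured 4 passed the filter, 2 of them above 0, the coactivator Ppargc1a at 0.46 and the potassium channel Kcnk3 at 0.45. The dim members differed in direction: Cidea stood at 4.12 and 3.74 in control and adenine, whereas Elovl3, given above, is on this list too and was higher by 2.07. Over all 19 the median was -0.25.

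Breakdown of branched-chain amino acids, a fuel and carbon source of differentiated fat cells, lay on one side throughout. All 21 measured genes that passed the filter lay above 0 (52.5% of all genes), with a median of 0.71, and 4 were at least 2-fold higher (1.24%). These were subunits of the branched-chain ketoacid dehydrogenase, Dbt (1.32) and Bckdhb (1.04), and the valine-pathway enzymes Hibch (1.29) and Hibadh (1.02, with 0.80 from a further probe set, short of 2-fold). The mitochondrial transaminase Bcat2, which starts the pathway, was at 0.97, and the kinase that restrains it, Bckdk, at 0.17. Dbt read 8.07 in control, 9.39 in adenine and 7.89 in AICAR adipocytes in adipocytes and 7.12, 6.97 and 6.53 in fibroblasts, so that the adenine adipocytes were the highest of 6. Alanine transaminase (Gpt) behaved alike, at 6.16 in control, 7.77 in adenine and 5.91 in AICAR adipocytes. In fibroblasts 9 of the 21 lay above 0 with adenine (47.8% of all genes), with a median of -0.04.

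**Figure D2:**
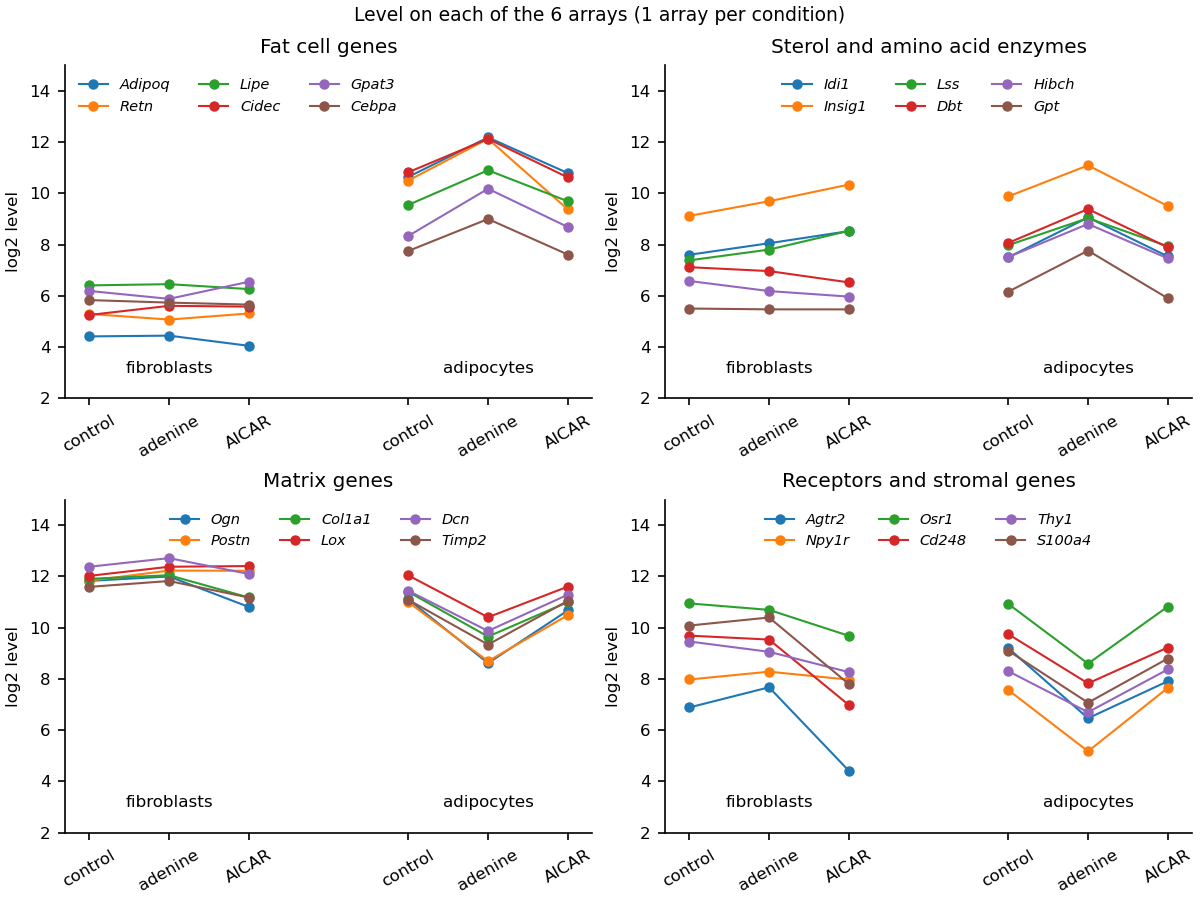
Log2 level of 24 genes on each of the 6 arrays (1 array per condition, lines join the 3 arrays of a cell state). In the upper panels the adenine adipocyte array is above the control and AICAR adipocytes for every gene drawn, and in the lower panels it is below both.

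The insulin signalling and glycolysis lists were centred near 0, with some members at least 2-fold higher. Of 22 insulin pathway genes past the filter, 9 lay above 0 (52.5% of all genes), with a median of -0.03. The cAMP phosphodiesterase Pde3b (1.14) and the pseudokinase Trib3 (1.04) were at least 2-fold higher (1.24% of all genes). The insulin receptor (Insr) was at 0.66, Irs2 at 0.73 and Irs1 at -0.01. The glycolysis and hypoxia list had a median of 0.07 over 30. In it the glycolytic regulator Pfkfb3 (1.22) alone was past 2-fold, against the same 1.24%, with hexokinase 2 (Hk2) at 0.91 and P4ha2 at -0.75. Within the pentose phosphate list transaldolase (Taldo1, 0.93) and transketolase (Tkt, 0.68) were above the oxidative enzyme Pgd (0.32).

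In each of 7 lists of matrix genes most members that passed the filter lay below 0, where 47.5% of all genes did, and between 0 and 10 per list were at least 2-fold lower (2.4% of all genes). All 10 fibrillar collagen genes that passed the filter, of 11 measured, lay below 0, and 4 were at least 2-fold lower: Col1a1 (-1.75), Col3a1 (-1.64), Col1a2 (-1.46) and Col11a1 (-1.41). Their median was -0.79 (-1.46 with the filter at the 75th percentile). Col1a1, the alpha 1 chain of type I collagen, read 11.40 in control, 9.65 in adenine and 10.996 in AICAR adipocytes and 11.90, 12.05 and 11.18 in the control, adenine and AICAR fibroblasts. The adenine adipocytes were 3.36-fold below the control and lowest of the 6. Of the type V collagen chains, which nucleate fibrils, Col5a1 was at -0.71, Col5a2 at -0.88 and Col5a3 at -0.07. Basement membrane genes, which fat cells keep making, were less far from the control, with a median of -0.43 over 14 and 0 past 2-fold. Laminin gamma 1 (Lamc1) was at 0.17, laminin alpha 4 (Lama4) at 0.08 and the type IV collagen chain Col4a1 at -0.45.

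Of the leucine-rich proteoglycans and matricellular proteins 18 of 32 measured passed the filter, 16 lay below 0 and 8 were 2-fold lower or more, and their median was -0.65 (-0.30 without the filter, -1.26 with it at the 75th percentile). After osteoglycin came periostin (Postn), which binds collagen during fibril assembly, at 10.99 in control, 8.69 in adenine and 10.48 in AICAR adipocytes. Islr stood at -2.02, thrombospondin 1 (Thbs1) at -1.59, decorin (Dcn) at -1.57 and Thbs2 at -1.51. Biglycan (Bgn), a close relative of decorin, was at -0.12 and tenascin C (Tnc) at 0.05. All 13 elastic fibre and fibronectin genes past the filter lay below 0, with matrix Gla protein (Mgp, -1.31) past 2-fold and fibronectin (Fn1) at -0.78.

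Enzymes that mature collagen had a median of -0.49, with 20 of 22 below 0. The crosslinking enzyme lysyl oxidase (Lox) read 12.04 in control, 10.41 in adenine and 11.60 in AICAR adipocytes. The procollagen peptidase Adamts14 differed by -1.54 and Pcolce, an enhancer of procollagen processing, by -1.47. Prolyl 4-hydroxylase subunits were between -0.96 (P4ha3) and -0.33 (P4hb). P3h4, of the prolyl 3-hydroxylase family, was at -0.005 and the lysyl hydroxylase Plod3 at 0.22. Both matrix proteases and their inhibitors were on the lower side, with 23 of 26 below 0 (47.5% of all genes) and 10 at least 2-fold lower (2.4%). The inhibitor Timp2 (-1.75) and the tissue plasminogen activator Plat (-1.83) were lowest, followed by the aggrecanase Adamts5 (-1.23) and Timp1 (-1.17). Timp2 read 11.09 in control, 9.34 in adenine and 11.04 in AICAR adipocytes, and its fibroblast levels of 11.59, 11.82 and 11.17 were all above the adenine adipocyte level. The shedding protease Adam17 was highest, at 0.46.

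Of 20 integrins and adhesion molecules that passed the filter 16 lay below 0 (47.5% of all genes), with a median of -0.50 (-0.30 without the filter). At least 2-fold lower were 7 (2.4% of all genes). Among these were Itgbl1 (-2.18), cadherin 11 (Cdh11, -1.51), Cdh13 (-1.45), Ncam1 (-1.44) and Vcam1 (-1.37). The 4 members above 0 were the laminin-binding integrin subunits Itga6 (1.80) and Itga7 (0.98), Itgb5 (0.71) and the collagen-binding subunit Itga1 (0.60), and only Itga6 was past 2-fold. Itga6 read 8.44 in control, 10.25 in adenine and 8.24 in AICAR adipocytes. Within the contractile and cytoskeletal list 17 of 19 lay below 0, with a median of -0.61, and calponin 2 (Cnn2, -1.60), smooth muscle actin (Acta2, -1.21), caldesmon (Cald1, -1.11), zyxin (Zyx, -1.10) and filamin A (Flna, -1.002) were at least 2-fold lower. Non-muscle myosin Myh10 was at 0.53 and vinculin (Vcl) at 0.22.

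Stromal progenitor and preadipocyte markers had the lowest median of the lists drawn in the plot of lists, -1.13 over 19 that passed the filter of 28 measured (-0.55 over all 28). Of the 19, 18 lay below 0 (47.5% of all genes) and 10 were at least 2-fold lower (2.4%). The PDGF receptor Pdgfra read 11.51 in control, 9.94 in adenine and 10.64 in AICAR adipocytes, Thy1 8.30 in control, 6.70 in adenine and 8.37 in AICAR adipocytes, endosialin (Cd248) 9.75 in control, 7.83 in adenine and 9.22 in AICAR adipocytes and the calcium-binding protein S100a4 9.10 in control, 7.07 in adenine and 8.79 in AICAR adipocytes. In each of these the adenine array was lowest of the 3 adipocyte arrays, although Pdgfra remained a bright gene. Vimentin (Vim) was at -0.51 and galectin 1 (Lgals1) at -0.04. The whole list of 28 had a median level of 7.98 in control and 6.89 in adenine adipocytes, with 17 and 16 members at the filter level or above. These markers lay on the same side as the matrix, adhesion and growth factor lists. Those lists share members with this one, such as Fap with the proteases, Mfap5 with elastic fibre and Icam1 with adhesion, so they are not separate observations. The part of these markers in those differences was not tested.

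**Figure D3:**
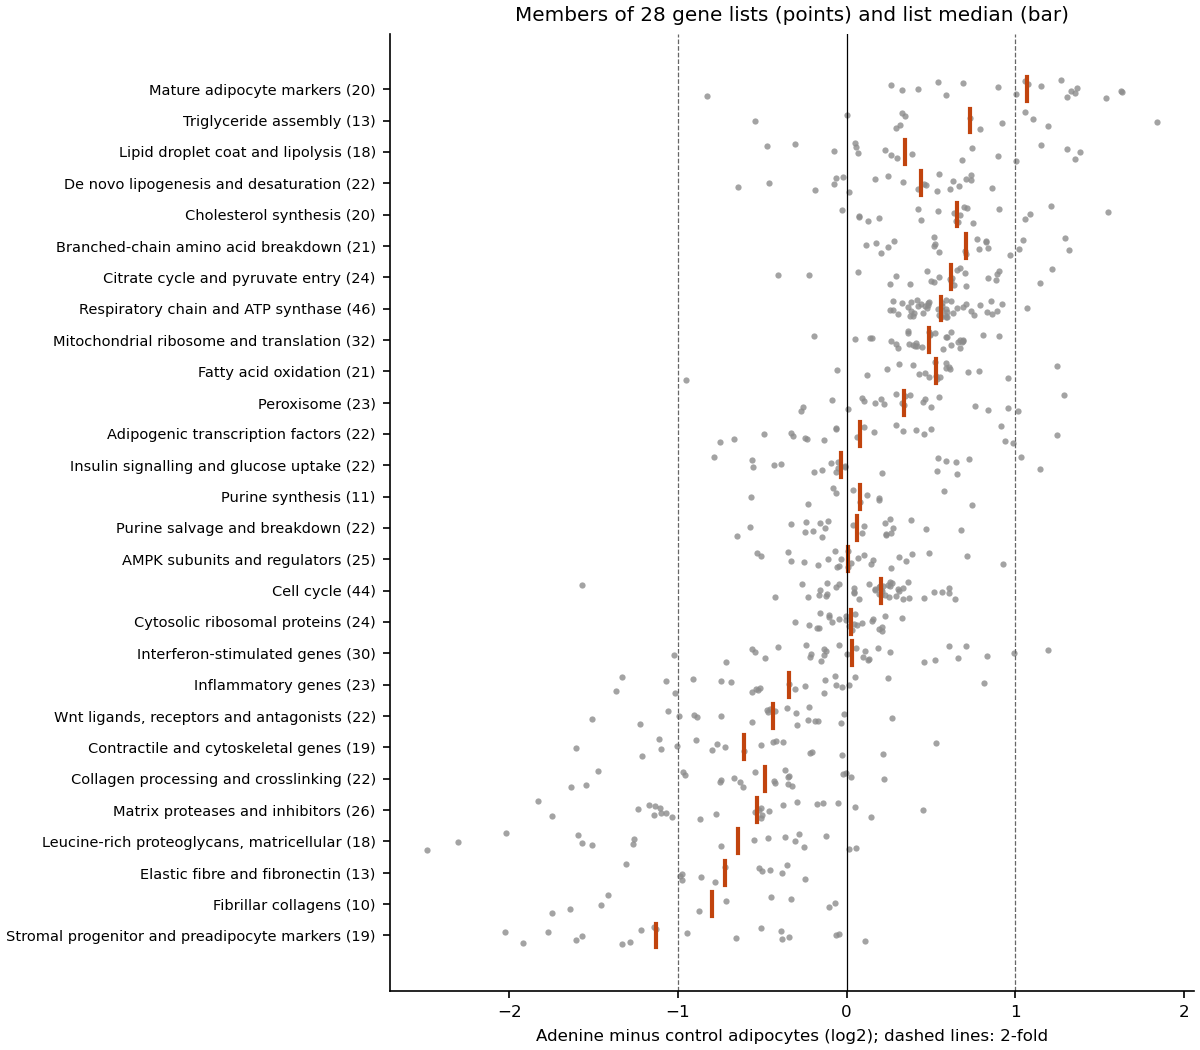
Difference between adenine and control adipocytes (horizontal axis, log2) for the members of 28 gene lists that passed the filter, 1 point per gene, with the list median as a bar and the number of members in brackets. Medians run from 1.07 for mature adipocyte markers to -1.13 for stromal progenitor markers, and the lists of purine enzymes, AMPK and ribosomal proteins are centred near 0.

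Ligands and receptors of several growth pathways lay below the control. Of the Wnt pathway genes 22 of 51 passed the filter and 21 lay below 0 (47.5% of all genes), with a median of -0.44 (-0.27 without the filter). The receptors Ror1 (-1.51) and Fzd1 (-1.22) and the agonist Rspo3 (-1.06) were at least 2-fold lower, and the antagonist Sfrp2 (-0.91) and the ligand Wnt5a (-0.89) were lower by less. The TGF-beta list had a median of -0.18. Its lowest members were the activin-binding follistatin (Fst, -1.51) and Fstl1 (-1.52), while the activin subunit Inhba was at 1.10, with levels of 5.97 in control, 7.07 in adenine and 6.38 in AICAR adipocytes. The ligand and its soluble inhibitor therefore lay on opposite sides of the control. Among growth factors pleiotrophin (Ptn, -1.89), Vegfd (-1.69), Csf1 (-1.33) and Fgf7 (-1.17) were at least 2-fold lower, as were the receptors Egfr (-1.53), Pdgfra and Pdgfrb (-1.22). The hepatocyte growth factor receptor Met was at 1.08 and its ligand Hgf at -0.74. In the IGF axis and among imprinted growth genes 13 of 14 lay below 0, the median being -0.68 (-0.42 without the filter), including Igfbp6 (-1.06), Ndn (-1.22), Peg3 (-1.04), Mest (-0.88), Igf1 (-0.56) and Igf2 (-0.56).

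Peptide hormone receptors held differences in both directions. The neuropeptide Y receptor Npy1r, which couples to inhibition of cAMP formation, read 7.57 in control, 5.17 in adenine and 7.65 in AICAR adipocytes and was at 7.98, 8.28 and 7.97 in fibroblasts. The adenine adipocytes had the lowest level of the 6 arrays. The melanocortin side stood higher. The receptor accessory protein Mrap, which brings the ACTH receptor to the surface, read 8.32 in control, 9.51 in adenine and 6.55 in AICAR adipocytes. The ACTH receptor itself, Mc2r, did not pass the filter because it was dim in fibroblasts, and its adipocyte levels were 5.89 in control, 8.15 in adenine and 5.98 in AICAR. It was at 3.26 to 3.46 on the fibroblast arrays, and its difference of 2.27 lay between those of Anxa8 and Slc1a3. Mc5r was at 0.89, angiotensinogen (Agt) at 0.37 and the natriuretic peptide clearance receptor Npr3 at -0.88. Of the adrenergic and cAMP genes 7 of 14 lay above 0 (52.5% of all genes), with the protein kinase A subunit Prkar2b at 0.63.

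Lists of genes that handle adenine and other purines were centred near 0. Aprt read 7.74 in control, 7.60 in adenine and 7.81 in AICAR adipocytes, a difference of -0.14, adenosine kinase (Adk) 8.52 in control, 8.28 in adenine and 8.35 in AICAR adipocytes, a difference of -0.24, and Hprt, which salvages hypoxanthine and guanine, 9.23 in control, 9.70 in adenine and 9.34 in AICAR adipocytes, a difference of 0.47. Purine synthesis had a median of 0.08 over 11 genes, from Prps1 (0.75) to Prps2 (-0.57), related genes of the enzyme that makes the ribose phosphate donor. Purine salvage and breakdown had a median of 0.06 over 22 (-0.11 without the filter), with adenylate kinase 4 (Ak4) at 0.68 and purine nucleoside phosphorylase (Pnp) at -0.65. In both lists 0 members were past 2-fold, where 1.24% of all genes were higher and 2.4% lower. For lists of 11 and 22 genes that is near the share of all genes. AMPK subunits and regulators stood at a median of 0.01 over 25, between the scaffold Cab39 (0.93) and the subunit Prkab2 (-0.53). The catalytic subunit Prkaa1 was at 0.26.

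Of 32 measured purinergic receptors, ectonucleotidases and nucleoside transporters, 11 passed the filter. Tissue-nonspecific alkaline phosphatase (Alpl), which can strip phosphate from extracellular nucleotides among other substrates, was highest at 6.19 in control, 7.82 in adenine and 6.07 in AICAR adipocytes, and the equilibrative nucleoside transporter Slc29a1 was lowest at 8.95 in control, 7.83 in adenine and 8.88 in AICAR adipocytes. Its relative Slc29a3 was at -0.86, the nucleotidase Entpd5 at 0.97 and the ATP-gated channel P2rx4 at 0.20. The median of the 11 was 0.20, and it was -0.13 over the 32 measured, so the list has no settled side. The P2Y receptor gene P2ry13 was dim throughout, at 3.87 in control and 3.01 in adenine adipocytes.

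Inflammatory genes were lower as a list, with 19 of 23 below 0 (47.5% of all genes). Their median was -0.34 (-0.15 without the filter, -0.96 with it at the 75th percentile). Vcam1 and Csf1 were followed by the prostaglandin E synthase Ptges (-1.07) and the monocyte chemoattractant Ccl2 (-1.02). The endotoxin receptor Tlr4 was at 0.82 and Cxcl10 at 0.24. Acute-phase and complement genes lay on both sides, with 7 of 12 above 0 (52.5% of all genes) and a median of 0.20 (0.07 with the filter at the 75th percentile). At least 2-fold, 4 were higher (1.24% of all genes) and 1 lower (2.4%). Haptoglobin (Hp) read 9.33 in control, 10.91 in adenine and 10.03 in AICAR adipocytes, and Serpina3n 9.18 in control, 10.52 in adenine and 11.01 in AICAR adipocytes, while Orm1 (1.36) and Orm2 (1.501) are close copies whose probe sets may share signal. Serum amyloid A3 (Saa3) was at 0.19. Ceruloplasmin (Cp) was at -0.79 and the complement proteases C1ra at -0.81 and C1s1 at -1.75, the last of which also has a close copy, C1s2. Interferon-stimulated genes were centred on the control, with 16 of 30 above 0 and a median of 0.03, between Ifi27l2a (1.20) and Ifit2 (-1.02).

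Steroid and retinoid enzymes held a further contrast. Hsd11b1, which regenerates active glucocorticoid inside fat cells, read 6.31 in control, 8.16 in adenine and 6.07 in AICAR adipocytes, and it was at 5.93, 6.27 and 7.05 in fibroblasts. Akr1c14, a hydroxysteroid dehydrogenase of a family with close copies, was at -2.42, the oxysterol hydroxylase Cyp7b1 at -1.44, the alcohol dehydrogenase Adh7 at -1.54 and the retinaldehyde dehydrogenase Aldh1a1 at -1.11. Genes known to respond to glucocorticoid had a median of -0.11 over 21. Apart from Hsd11b1 they ran from lipin 1 to Dusp1 (-0.89) and Sgk1 (-0.83), and Fkbp5 was at -0.10.

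Cell cycle genes had a median of 0.20 over 44, with 33 above 0 (52.5% of all genes), from Ccne1 (0.64) down to cyclin D1 (Ccnd1), the only member past 2-fold. Cyclin D1, which couples growth signals and adhesion to entry into the cycle, read 8.85 in control, 7.27 in adenine and 8.58 in AICAR adipocytes. The inhibitor Cdkn2b was at -1.13, and the retinoblastoma gene Rb1 at 0.99. ATF4 targets and amino acid transporters lay above 0 in 23 of 28 cases (52.5% of all genes), with a median of 0.40, Trib3 highest, Chac1 at 0.77 and Vldlr at -0.81. In the list of ER chaperones Dnajb9 (1.04) stood apart from a median of 0.00 over 29. Clock genes had 12 of 15 above 0 (52.5% of all genes), with Bhlhe40 at 0.78 and Rora at 0.77. Cytosolic ribosomal proteins (0.02 over 24), ribosome biogenesis (0.08 over 26) and NRF2 targets (0.04 over 23) were centred close to the median of all genes. Of the lysosomal genes 23 of 31 lay below 0 (47.5% of all genes), from Tfeb (0.52) to Wipi1 (-0.59). Their median was -0.08, and 0.00 after median centring, so the side of this list depends on the array scale.

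Adenine and AICAR were given at the same dose for the same time, and the pair of treated adipocyte arrays allows a comparison that leaves out the control array. Adenine adipocytes were at least 2-fold above AICAR adipocytes in 121 genes (1.21%) and below in 220 (2.21%). The list medians of adenine minus AICAR were 1.17 for mature adipocyte markers, 0.71 for cholesterol synthesis, 0.74 for branched-chain amino acid breakdown, -0.58 for fibrillar collagens and -0.57 for stromal progenitor markers. Other medians were smaller in this pair than against control: -0.11 for elastic fibre, -0.14 for basement membrane, -0.18 for Wnt and 0.11 for ATF4 genes. Cell cycle genes were at -0.004, and acute-phase genes changed side, to -0.25. In these lists the AICAR adipocytes lay on the same side of the control as the adenine adipocytes. The largest positive values belonged to Thrsp (3.09), a lipogenic nuclear protein, Mrap (2.95) and resistin (2.75). For Thrsp the adipocyte levels were 9.89 in control, 10.31 in adenine and 7.23 in AICAR adipocytes, so that it was the AICAR array that stood apart. For Anxa8, Slc1a3 and Gpat3 the values were 2.07, 2.16 and 1.49, and there the adenine array stood apart. Lower than AICAR were the phosphatase Ppef1 (-3.32), Acta2 (-3.16), Ifit1 (-2.84), Ccl2 (-2.76) and Ccl7 (-2.63). Acta2 read 7.24 in control, 6.03 in adenine and 9.19 in AICAR adipocytes. Of the interferon-stimulated list 17 of 30 were at least 2-fold lower than in AICAR adipocytes, with a median of -1.10, and of the inflammatory list 9 of 23, with a median of -0.65. Ifit1 read 4.75 in control, 5.21 in adenine and 8.05 in AICAR adipocytes, with the AICAR array the high one. With 1 array per compound these differences have no interval.

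Fibroblasts given adenine for 3 days showed few large differences against their own control, with 8 genes at least 2-fold higher (0.0802%) and 5 lower (0.0502%). This pair of arrays shares none with the adipocyte pair, and the differences of the 9969 genes in the 2 states had a Pearson correlation of -0.17 and a Spearman correlation of -0.14 across genes, which are not independent replicates. At least 1.5-fold in both states were 38 genes. They made up 2.78% of the 1368 genes past that size in adipocytes, and 0.863% of all genes were past it in fibroblasts. They also made up 44.2% of the 86 genes past it in fibroblasts. Of all genes, 6.85% were higher and 6.87% lower by that size in adipocytes. Of the 38, 25 were lower in adipocytes and higher in fibroblasts, 7 the other way and 6 on the same side. Col12a1, a collagen on the surface of fibrils, was the single gene past 2-fold in both, at -1.64 in adipocytes and 1.19 in fibroblasts, with levels of 8.08 in control, 6.44 in adenine and 7.93 in AICAR adipocytes and 7.80, 8.98 and 7.85 in the control, adenine and AICAR fibroblasts. The carboxylesterase Ces2g (-1.89 and -0.89) was on the lower side in both states, and Orm1 (1.36 and 0.68) on the higher. Of the 239 genes at least 2-fold lower in adipocytes 156 lay above 0 in fibroblasts, where 47.8% of all genes did, with a median of 0.09. Of the 124 higher, 75 lay below 0 there (52.1% of all genes did), with a median of -0.06. For fibrillar collagens the list median was 0.13 in fibroblasts, for elastic fibre genes 0.38 and for leucine-rich proteoglycans 0.26, against -0.79, -0.72 and -0.65 in adipocytes.

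**Figure D4:**
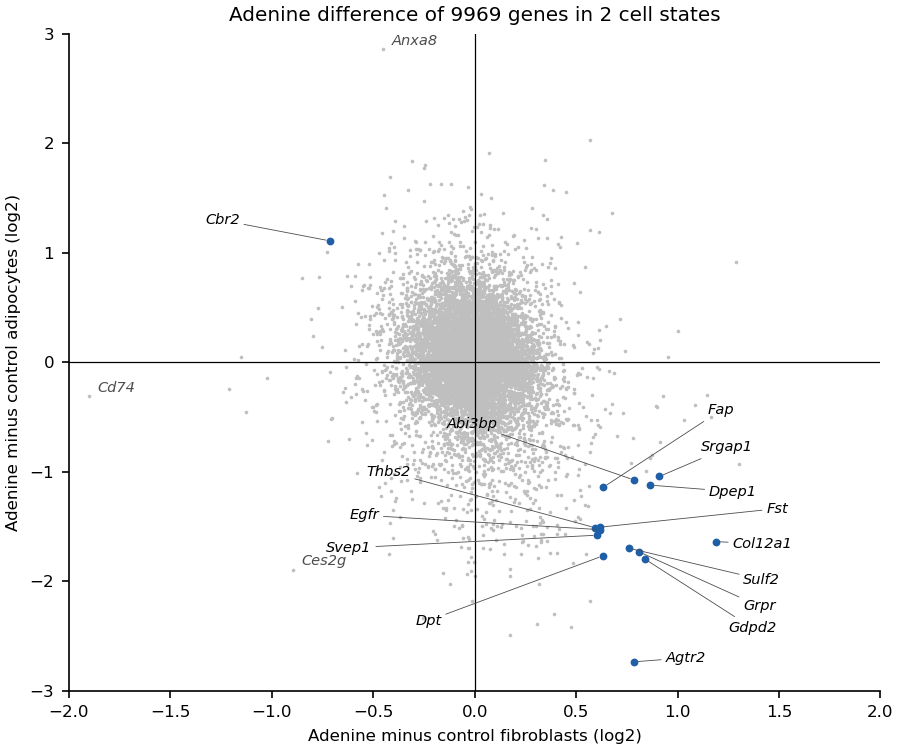
Adenine difference in adipocytes (vertical axis, log2) against that in fibroblasts (horizontal axis, log2) for 9969 genes, 1 point per gene. Blue points are 15 genes at least 2-fold apart from control in adipocytes and at least 1.5-fold in the opposite direction in fibroblasts, 14 of them lower in adipocytes. Of all genes, 239 were at least 2-fold lower in adipocytes and 124 higher.

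To describe the adenine difference along the fibroblast-to-adipocyte axis without reusing its arrays, genes were sorted by the AICAR pair of the 2 states. That pair also differs in serum, hormones and time since AICAR exposure, so its genes are not set by cell state alone. Of the fibroblast arrays the AICAR array stood furthest outside the others, with 60 genes at least 2-fold above and 111 below. The 591 genes at least 2-fold higher in AICAR adipocytes than in AICAR fibroblasts had a median adenine difference of 0.35 (quartiles -0.02 and 0.70) in adipocytes. Of these 440 lay above 0 (74.5%, against 52.5% of all genes) and 66 were at least 2-fold higher (11.2%, against 1.24%). The 459 genes at least 2-fold higher in AICAR fibroblasts centred on -0.25; 30.5% lay above 0, and 38 were at least 2-fold lower (8.28%, against 2.4%). Both sets spread widely, and 26 of the 591 adipocyte-side genes were at least 2-fold lower with adenine. In adenine fibroblasts the same sets had medians of -0.03 and 0.05.

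**Figure D5:**
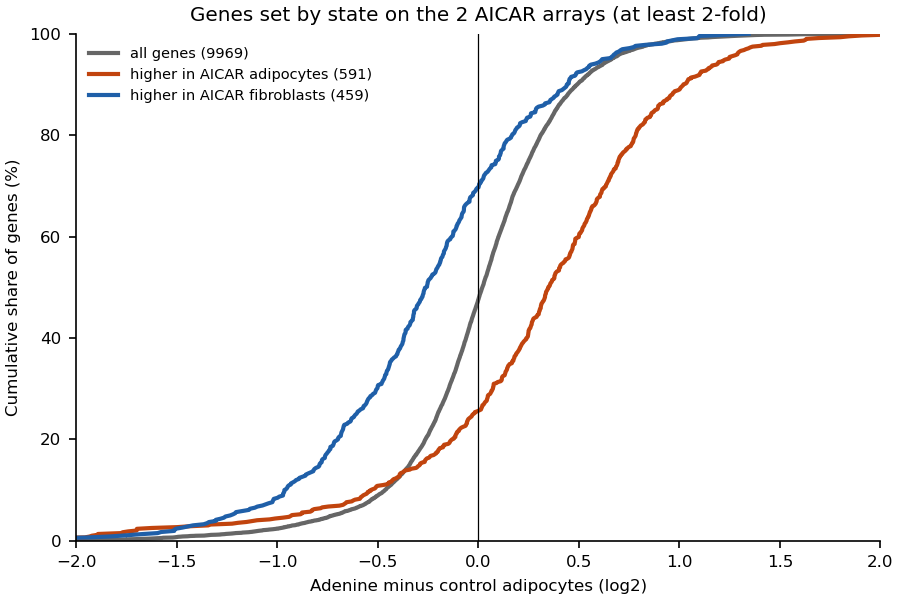
Cumulative share of genes (vertical axis, percent) by adenine difference in adipocytes (horizontal axis, log2, drawn from -2 to 2) for all 9969 genes and for genes at least 2-fold apart between the 2 AICAR arrays. Those 2 arrays also differ in serum, hormones and time since AICAR exposure. The adipocyte-side curve (591 genes) lies to the right of all genes over most of its range and the fibroblast-side curve (459 genes) to the left, with medians of 0.35 and -0.25.

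Levels in the adenine adipocytes also lay outside the range of the other 5 arrays. In 64 genes they were at least 2-fold above the highest of the others and in 87 genes at least 2-fold below the lowest. The control adipocytes had 5 and 0 such genes, the AICAR adipocytes 0 and 0, the adenine fibroblasts 1 and 0, the control fibroblasts 3 and 1, and the AICAR fibroblasts 60 and 111. Beyond the genes already described, those above included Bcar3, an adaptor of integrin signalling, with levels of 7.41 in control, 9.32 in adenine and 7.62 in AICAR adipocytes, and Fam83a, with 6.65 in control, 8.42 in adenine and 6.27 in AICAR adipocytes. Those below included the serine protease Prss23, with levels of 8.15 in control, 6.20 in adenine and 7.997 in AICAR adipocytes, the membrane repair protein Myof, with 9.02 in control, 7.32 in adenine and 9.18 in AICAR adipocytes, and the corepressor Runx1t1, with 7.93 in control, 6.10 in adenine and 7.71 in AICAR adipocytes.

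Probe sets of a gene differed from each other to varying degrees. Among 582 such genes the range between probe sets of a gene had a median of 0.15 and a 90th percentile of 0.47, and all 10 of them that were past 2-fold had every probe set on the same side. In 5 of the 10 a probe set fell short of 2-fold: Stard9 (-0.27 against -1.12), Srgap3 (-0.62 against -1.10), Atp5md (0.74 against 1.10), Hibadh, and Prune2 (-0.995 against -1.01). These probe sets share RNA and array, so they speak to the probes and not to the culture.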

How the data were processed

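Biotin-labelled total RNA was hybridised to Affymetrix whole-transcript arrays. The deposited values are log2 expression values of 35556 probe sets, made with Transcriptome Analysis Console 1.0.0.234 on mm10, per the submitters' processing notes. Background correction, normalization and probe summary were not given in these sources, and no detection calls were used, so differences of dim genes depend on steps that are unknown. The values were used as deposited, with Python 3.11.15, pandas 2.3.3 and numpy 2.4.6.

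Groups came from the labels. In the platform annotation 21789 probe sets had a single symbol, 1621 had more and 12146 lacked one. The first kind was used, 1 probe set per symbol by highest mean over the 6 arrays. Genes with a mean under the median of gene means (5.87) were left out. Of the single-symbol probe sets 21698 had a gene in the RefSeq table (GRCm38.p6, the same build), which gave the coordinates and promoters. One array was subtracted from another and genes at or past 2-fold were counted; with 1 array per condition no test was run. The counting step was tested on simulated data.

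Each of 59 gene lists was described by counts and its median. Some genes belong to several lists. The members and lists were chosen with earlier results of these data known. Named genes were the 25 highest and 25 lowest differences, the 5 highest and 5 lowest members of each list (every member of lists of up to 12), 5 given markers, Aprt, Adk, Hprt, and the 8 largest each way for adenine against AICAR, between states and outside the other arrays. Predicted genes, small RNAs and chemosensory receptors were passed over. Also named, after their values were seen, were Abhd5, Agpat2, Atp5md, Cebpb, Col4a1, Fgf7, Fkbp5, Fn1, Hgf, Hmgcs1, Irs1, Lgals12, Mest, Pdgfrb, Plin2, Prkaa1, Prune2, Sqle, Srgap3, Stard9, Thbs2, Twist2, Vim, Wnt5a, Yap1, the dim genes Elovl3, Mc2r, Cidea and P2ry13, and genes set apart between the states.

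Alternatives were quantile normalization, median centring, no filter, a filter at the 75th percentile, the mean of a gene's probe sets and a 1.5-fold threshold.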

Additional observations from a re-analysis of the deposited data

Results flagged for a closer look

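Between the cell states 15 genes were at least 2-fold apart from control in adipocytes and at least 1.5-fold the other way in fibroblasts. With 1 array per group every sample of a state moves one way by construction, and the difference between states was not tested. The values below are the adenine difference in adipocytes minus that in fibroblasts (log2), and 14 of the 15 were lower in adipocytes. Among all genes 239 were at least 2-fold lower in adipocytes and 124 higher. At 1.5-fold 54 were higher in fibroblasts and 32 lower, so the rule leans this way from the start. It also picks genes with large values. The angiotensin receptor Agtr2 was at -3.52 and the fibril-associated collagen Col12a1 at -2.83. Next came the glycerophosphodiesterase Gdpd2 at -2.63, the bombesin receptor Grpr at -2.54, the heparan sulfatase Sulf2 at -2.46 and the matrix protein dermatopontin (Dpt) at -2.40. The adhesion protein Svep1 stood at -2.18, Egfr at -2.14, follistatin (Fst) at -2.12 and thrombospondin 2 (Thbs2) at -2.11. The dipeptidase Dpep1 was at -1.99, Srgap1 at -1.95, the matrix protein Abi3bp at -1.86 and the fibroblast activation protein Fap at -1.77. The carbonyl reductase Cbr2 was the one gene higher in adipocytes, at 1.82, with adipocyte levels of 8.58 in control, 9.69 in adenine and 8.65 in AICAR adipocytes and fibroblast levels of 7.80, 7.09 and 6.28. Grpr read 6.93 in control, 5.20 in adenine and 5.70 in AICAR adipocytes, and its fibroblast levels were 5.73, 6.54 and 6.17. Sulf2 read 8.47 in control, 6.77 in adenine and 7.43 in AICAR adipocytes and 7.68, 8.44 and 6.32 in the control, adenine and AICAR fibroblasts.

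Probe sets that carry no gene symbol were outside the comparisons. Of 3702 of them at or above the filter level, 94 were at least 2-fold higher in adenine than in control adipocytes (2.54%) and 26 lower (0.702%), a split opposite to that of the named genes. The median over the 3702 was 0.00. In AICAR adipocytes 57 were higher and 18 lower against the same control array, and in adenine fibroblasts 5 and 3. Adenine against AICAR adipocytes, which leaves out the control array, gave 34 and 27.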

How the results depend on the processing

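The 2-fold counts were most sensitive to the threshold and to a strict filter: at 1.5-fold they were 683 higher and 685 lower, and with the filter at the 75th percentile 54 genes were higher, 48 were higher than in AICAR adipocytes and 19 were at least 1.5-fold apart in both states, since fewer genes remain. Under the other settings the 5 counts of genes kept within 1.5 times of their values. The median of all genes was -0.02 after quantile normalization and 0.10 after median centring. Of 551 named genes, 136 were at least 2-fold apart, and 0 of these turned sign under any setting. The filter settings leave a gene's value unchanged, and median centring shifts all genes alike by a small amount. Only quantile normalization and the mean of probe sets could have turned a sign. With the strict filter 339 of the 551 remained.

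Without the filter the median was -0.42 for factors that restrain adipogenesis, 0.80 for mature adipocyte markers, 0.23 for lipid droplet genes, -0.13 for fatty acid uptake, 0.34 for triglyceride assembly, -0.30 for leucine-rich proteoglycans, -0.51 for elastic fibre genes, -0.30 for integrins and adhesion, -0.47 for contractile genes, -0.55 for progenitor markers, -0.27 for Wnt genes, -0.42 for the IGF axis, -0.38 for growth factors, -0.09 for the angiotensin and neuropeptide list, -0.11 for purine salvage, -0.11 for steroid and retinoid enzymes, 0.16 for clock genes, -0.15 for inflammatory genes and -0.16 for muscle markers. With the filter at the 75th percentile it was -0.91 for factors that restrain adipogenesis, -1.46 for fibrillar collagens, -1.26 for leucine-rich proteoglycans, -0.82 for matrix proteases, -0.65 for integrins and adhesion, -0.77 for contractile genes, -1.25 for progenitor markers, -0.56 for Wnt genes, -0.76 for growth factors, 0.29 for the cAMP pathway, -0.11 for purine salvage, 0.57 for clock genes, -0.96 for inflammatory genes and 0.07 for acute-phase genes. The purinergic list turned from 0.20 to -0.13 without the filter and to -0.08 with the strict one. These 2 settings change which members are counted. Quantile normalization took the IGF axis to -0.80. The other 245 medians under an alternative, of the lists and of the sets sorted by the AICAR pair, moved by less than 0.1.

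No paired analysis was possible because each group has 1 array. The filter is a mean over 6 arrays and drops genes bright on 1 of them; levels near 5 have no detection call here, so their differences are uncertain.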

Other observations

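Several of the most different genes belong to no list above. The E3 ligase Rnf125 read 6.79 in control, 8.49 in adenine and 7.28 in AICAR adipocytes, the mitochondrial co-chaperone Dnajc15 6.88 in control, 8.41 in adenine and 7.52 in AICAR adipocytes and the hydroxyacid-oxoacid transhydrogenase Adhfe1 7.76 in control, 9.24 in adenine and 8.11 in AICAR adipocytes. In each the adenine adipocytes were the highest of the 3 adipocyte arrays. On the lower side the calpain Capn6 read 11.84 in control, 9.66 in adenine and 11.19 in AICAR adipocytes, the protease inhibitor Pi15 9.28 in control, 7.32 in adenine and 9.32 in AICAR adipocytes, the lysophosphatidic acid receptor Lpar1 8.19 in control, 6.29 in adenine and 7.55 in AICAR adipocytes and the detoxifying dehydrogenase Aldh3a1 7.66 in control, 5.88 in adenine and 6.14 in AICAR adipocytes. Medag, a gene known for promoting adipocyte differentiation, was among them, at 8.54 in control, 6.61 in adenine and 8.93 in AICAR adipocytes.

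The E-box CACGTG lay within 250 bases before the start in 14.3% of the 98 genes at least 2-fold higher that had a promoter, in 3.49% of the 172 at least 2-fold lower and in 10.3% of the 8057 past the filter. It reads the same on both strands. The count is a description of letters, was not tested, and was noticed after the motif tables were made.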
